A study of Rattus norvegicus with 6 samples.

Results

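The aminoacyl-tRNA synthetases and the genes annotated beside them were examined in RNA-seq data of rat bone marrow mesenchymal stem cells (BMSCs). Members were all genes of the count table whose description contains "tRNA synthetase" or "tRNA ligase", in either case of letter, which gave 46 of 33508 genes. Of these, 18 were counted as mitochondrial because the description says so or the symbol ends in ars2, and the other 28 as cytosolic. The cytosolic group holds 21 synthetase genes, the scaffold proteins Aimp1 and Aimp2, the proteins with a related domain Aarsd1 and Prorsd1, copies similar to Iars and Qars, and an unnamed transcript beside Tarsl2. The mitochondrial group holds 17 synthetases and a gene similar to Mars2.

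BMSCs-OE-FNDC5 carried a lentivirus that overexpresses FNDC5, the membrane precursor of irisin, and BMSCs-OE-NC carried the control vector. Both groups had 3 libraries and both had been kept for 24 h in hypoxia and serum deprivation (H/SD), in medium free of glucose and serum, so no library shows cells without this injury. The marrow donors were male Sprague-Dawley rats aged 2 months, and the cells were passaged before use and express the transgene from a virus rather than at a native level. The labels call the libraries biological replicates without naming separate rats or cultures, so the p-values measure the spread between these libraries, which may be partly technical.

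Each synthetase joins an amino acid to its own tRNA and so sets what the ribosome can read. In animal cells, cytosolic and mitochondrial protein synthesis use largely separate nuclear genes for this step, and a set of cytosolic enzymes is held in a multi-synthetase complex by the scaffold proteins Aimp1, Aimp2 and Eef1e1. When charging fails, uncharged tRNA activates the kinase GCN2 (Eif2ak4), which phosphorylates eIF2 and raises translation of Atf4, a transcription factor that drives amino acid transport, synthesis and several cytosolic synthetase genes.

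Total counts were 16640635 to 17229490 in BMSCs-OE-FNDC5 and 17430287 to 17965722 in BMSCs-OE-NC. Fndc5 had 64195 to 65589 counts in BMSCs-OE-FNDC5 and 17 to 25 in BMSCs-OE-NC, as the labels say. All 7 listed mesenchymal markers were detected (3 rose and 4 fell), and Ptprc, Cdh5 and Hbb were at 0. The 6 macrophage markers summed to 3.31 to 4.64 scaled CPM (counts brought to a common library total with TMM, which adjusts for the make-up of the libraries) in BMSCs-OE-FNDC5 and to 2.39 to 2.997 in BMSCs-OE-NC, most of it from Cd68, with Adgre1, Cd163 and Mrc1 at 0. The endothelial list summed to 90.2 to 93.8 CPM in BMSCs-OE-FNDC5 and 51.5 to 55.02 in BMSCs-OE-NC, nearly all of it from Egfl7 (a mean of 92.5 CPM in BMSCs-OE-FNDC5 and 52.7 in BMSCs-OE-NC), with Cdh5 and Kdr at 0. Klf1, on the erythroid list with Hbb, was at 2.62 ± 0.44 scaled CPM in BMSCs-OE-FNDC5 and 1.05 ± 0.14 in BMSCs-OE-NC (SD). It rose (log2 fold change 1.32 ± 0.26 SE, adjusted p = 0.00068), at 18 to 44 counts a library. Retina markers, checked because the labels' extraction text speaks of retinas, summed to at most 0.33 CPM in BMSCs-OE-FNDC5 and 0.66 in BMSCs-OE-NC. Cd14, listed as a marker that mesenchymal stem cells lack, was at 197 ± 4.85 scaled CPM in BMSCs-OE-FNDC5 and 98.5 ± 2.54 in BMSCs-OE-NC (SD), and its part in the results was not tested. In bulk RNA, fewer cells of a type and less RNA per cell cannot be told apart.

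Per length, the cytosolic enzymes were the more abundant set. The 21 cytosolic synthetases had a median of 43.1 FPKM (fragments corrected for gene length and depth) in BMSCs-OE-FNDC5 and 43.6 in BMSCs-OE-NC, and the 16 mitochondrial synthetases that passed the filter on low counts had a median of 4.84 FPKM in BMSCs-OE-FNDC5 and 4.57 in BMSCs-OE-NC. Tars2, the mitochondrial threonyl enzyme, led its class in both groups at 24.6 FPKM in BMSCs-OE-FNDC5 and 16.8 in BMSCs-OE-NC. Of the cytosolic enzymes, 13 in BMSCs-OE-FNDC5 and 15 in BMSCs-OE-NC lay above it. Sars, the seryl enzyme, was the highest in both groups with 205 FPKM in BMSCs-OE-FNDC5 and 104 in BMSCs-OE-NC. Tarsl2, a second threonyl enzyme, was the lowest with 1.17 FPKM in BMSCs-OE-FNDC5 and 1.14 in BMSCs-OE-NC. The span between the highest and lowest cytosolic gene was 176-fold in BMSCs-OE-FNDC5 and 90.8-fold in BMSCs-OE-NC.

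The synthetases did not move as a block. At an adjusted p under 0.05, 18 of the 43 tested members rose, 12 fell and 13 did not pass, where 36.9% of all 12104 tested genes rose and 38.8% fell. By class, 11 cytosolic members rose and 9 fell of 27, and 7 mitochondrial members rose and 3 fell of 16. Fold changes are given as BMSCs-OE-FNDC5 relative to BMSCs-OE-NC. The median on the log2 scale was 0.08 for cytosolic and 0.14 for mitochondrial members, beside -0.04 over all tested genes. With a log2 fold change beyond 1 required as well, Aarsd1 was the only member that rose (9.84% of all genes did) and Eprs the only one that fell (17.5% did). Libraries of the groups did not overlap in 33 of the 43 members, against 78.3% of all tested genes. Members with a mean of at least 10 CPM varied little between libraries of a group, with a median coefficient of variation of 3.65% in BMSCs-OE-FNDC5 and 3.18% in BMSCs-OE-NC.

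The split depends on scaling. Scaled by library size only, the median of all genes shifts by -0.37 and 11 members rose while 22 fell, where 22.0% of all tested genes rose and 55.4% fell. With the trend of counts with gene length removed, which shifts the median of all genes by 0.13, 22 rose and 7 fell, where 40.6% of all rose and 30.9% fell. Summed over the 46 members, scaled CPM were 3444 to 3455 in BMSCs-OE-FNDC5 and 2759.9 to 2825 in BMSCs-OE-NC, yet the members took 0.303% to 0.304% of the raw counts in BMSCs-OE-FNDC5 and 0.314% to 0.320% in BMSCs-OE-NC. Values below use TMM. Where library size only or removal of the length trend turned the direction of a member, its value is given beside the gene.

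**Figure D1:**
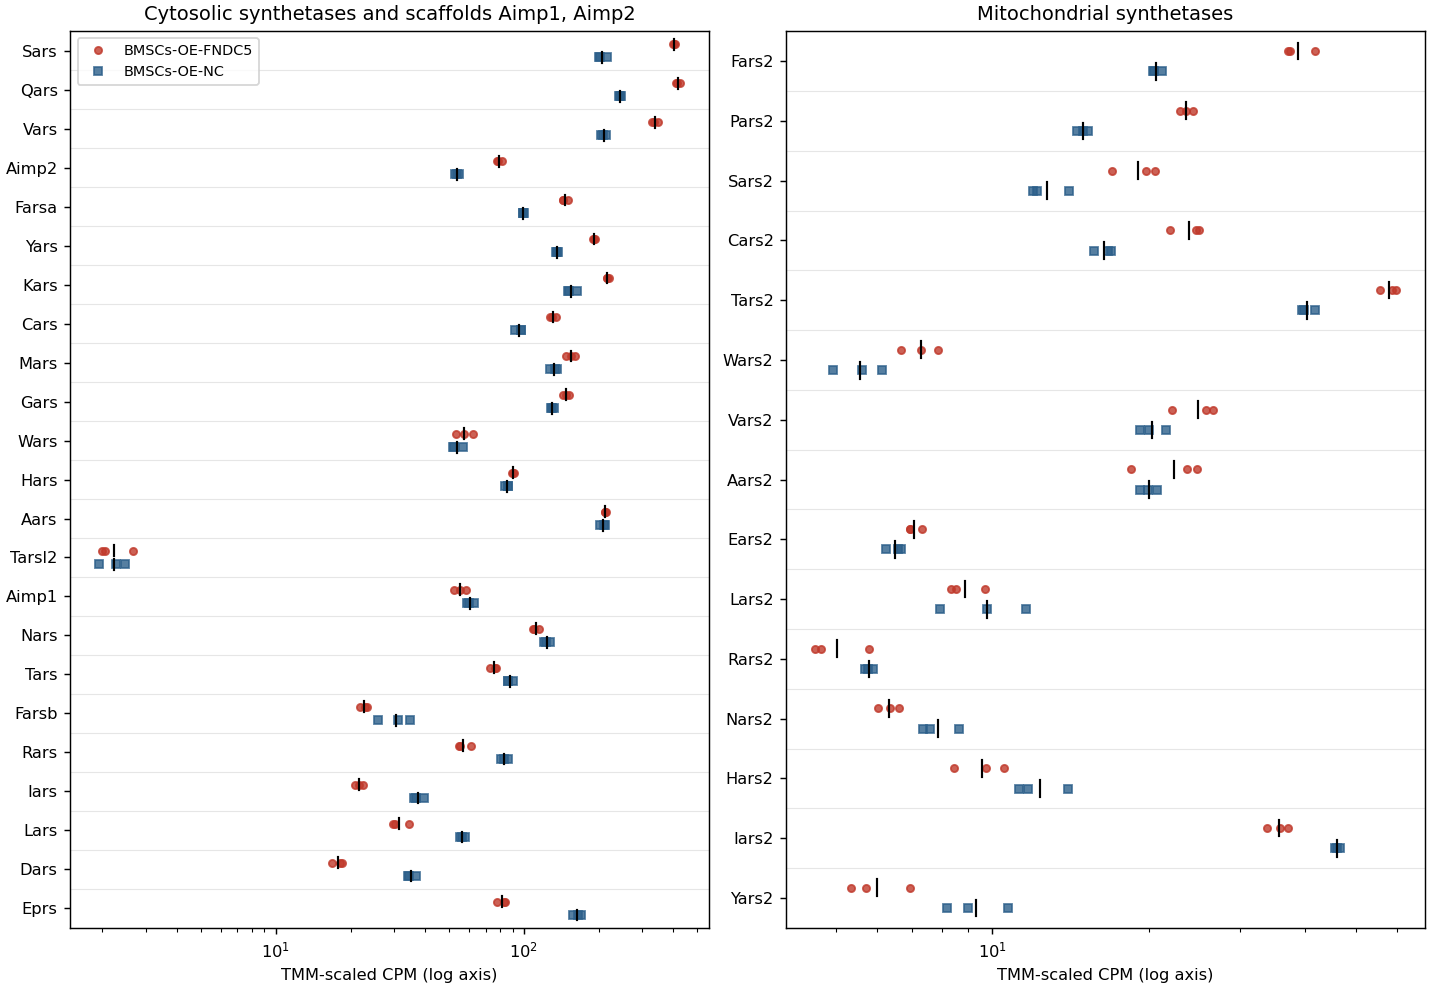
Scaled CPM of each library (log axis, range differs between panels) for cytosolic synthetases with the scaffolds Aimp1 and Aimp2 (left) and mitochondrial synthetases (right), ordered by log2 fold change. Circles are the 3 BMSCs-OE-FNDC5 libraries, squares the 3 BMSCs-OE-NC libraries and black ticks their means. Sars, Qars and Vars lie apart to the right in BMSCs-OE-FNDC5, and Dars and Eprs apart to the left.

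Within the multi-synthetase complex, the mRNAs went both ways, where 36.9% of all tested genes rose and 38.8% fell. Of its 8 synthetase genes, Qars, Kars and Mars rose and Eprs, Dars, Lars, Iars and Rars fell, and none failed the test. Their median log2 fold change was -0.66, and their summed scaled CPM were 982 to 1009 in BMSCs-OE-FNDC5 and 901 to 920 in BMSCs-OE-NC. The median was -0.20 with the length trend removed (3 rose, 4 fell), where 40.6% of all tested genes rose and 30.9% fell. With library size only it was -1.03 (2 rose, 6 fell), where 22.0% of all rose and 55.4% fell.

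Eprs joins both glutamate and proline to their tRNAs from a single fused protein. It had 83.7, 77.6 and 83.3 scaled CPM in BMSCs-OE-FNDC5, against 158, 165 and 169.8 in BMSCs-OE-NC. The groups were far apart and Eprs fell (log2 fold change -1.01 ± 0.042 SE, adjusted p = 2.2e-09). This value lies at the fold threshold, which several alternatives did not reach.

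Dars, the aspartyl enzyme, had 18.1, 16.8 and 18.5 scaled CPM in BMSCs-OE-FNDC5, against 34.1, 36.7 and 34.5 in BMSCs-OE-NC. Its BMSCs-OE-NC libraries were all above the BMSCs-OE-FNDC5 libraries, and it fell (log2 fold change -0.98 ± 0.071 SE, adjusted p = 2.2e-07). Lars, the leucyl enzyme that also reports leucine to mTORC1, had 30.1, 29.7 and 34.5 scaled CPM in BMSCs-OE-FNDC5, against 58.02, 55.1 and 56.2 in BMSCs-OE-NC. It fell too (log2 fold change -0.84 ± 0.062 SE, adjusted p = 2.6e-07), with no overlap between groups.

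Iars, the isoleucyl enzyme, had 21.7, 20.9 and 22.5 scaled CPM in BMSCs-OE-FNDC5, against 39.4, 36.1 and 36.7 in BMSCs-OE-NC. It fell (log2 fold change -0.78 ± 0.066 SE, adjusted p = 8e-07), though with the length trend removed its log2 fold change was -0.04 and the call was lost (adjusted p = 0.616). Rars, the arginyl enzyme, had 55.03, 54.6 and 61.4 scaled CPM in BMSCs-OE-FNDC5, against 85.9, 80.4 and 83.1 in BMSCs-OE-NC. The groups did not overlap and it fell (log2 fold change -0.54 ± 0.052 SE, adjusted p = 2.4e-06).

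Qars, the glutaminyl enzyme and the most abundant of the complex, had 424, 415 and 409 scaled CPM in BMSCs-OE-FNDC5, against 246, 244 and 242 in BMSCs-OE-NC. All BMSCs-OE-FNDC5 libraries were higher, and it rose (log2 fold change 0.77 ± 0.027 SE, adjusted p = 4.4e-10). Kars, the lysyl enzyme, rose less (log2 fold change 0.49 ± 0.036 SE, adjusted p = 2.6e-07), with 217 ± 1.91 scaled CPM in BMSCs-OE-FNDC5 and 155 ± 6.87 in BMSCs-OE-NC (SD). Mars, the methionyl enzyme, rose slightly under TMM (log2 fold change 0.23 ± 0.040 SE, adjusted p = 0.00032), with 155 ± 6.20 scaled CPM in BMSCs-OE-FNDC5 and 132 ± 4.67 in BMSCs-OE-NC (SD), but fell when scaled by library size only (log2 fold change -0.14, adjusted p = 0.00638). Its gene overlaps Ddit3 by 72 bases on the opposite strand, and it is not stated whether the counting used strand.

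The ratio of Qars to Eprs within a library needs no scaling between libraries. As log2 of the count ratio it was 2.34, 2.42 and 2.30 in BMSCs-OE-FNDC5, against 0.64, 0.57 and 0.51 in BMSCs-OE-NC. Qars thus had 5.10 counts per Eprs count in BMSCs-OE-FNDC5 and 1.49 in BMSCs-OE-NC.

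The scaffolds were unequal as well. Aimp2, also known as p38, had 78.4, 77.7 and 81.3 scaled CPM in BMSCs-OE-FNDC5, against 54.8, 52.6 and 53.5 in BMSCs-OE-NC. It rose (log2 fold change 0.56 ± 0.041 SE, adjusted p = 2.2e-07) and the groups did not overlap. Aimp1, the precursor of the cytokine EMAPII, had 55.2, 52.4 and 58.4 scaled CPM in BMSCs-OE-FNDC5, against 62.98, 60.2 and 59.05 in BMSCs-OE-NC. Its call as lower was weak (log2 fold change -0.13 ± 0.051 SE, adjusted p = 0.0319) and was lost without BMSCs-OE-FNDC5 replicate 1 or 2 or BMSCs-OE-NC replicate 1, where the log2 fold change was -0.13, -0.09 and -0.11. Eef1e1, the third scaffold, is no member by its description and fell (log2 fold change -0.49 ± 0.082 SE, adjusted p = 0.00022). The log2 ratio of Aimp2 to Aimp1 counts was 0.51, 0.57 and 0.48 in BMSCs-OE-FNDC5, against -0.20, -0.19 and -0.14 in BMSCs-OE-NC, so Aimp2 was the larger only in BMSCs-OE-FNDC5 libraries.

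Of the 13 cytosolic enzymes outside the complex, 6 rose, 3 fell and 4 did not pass, with a median log2 fold change of 0.10, where 36.9% of all tested genes rose and 38.8% fell. Library size only gives 4 that rose and 7 that fell, where 22.0% of all tested genes rose and 55.4% fell.

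Sars had 405, 398 and 401 scaled CPM in BMSCs-OE-FNDC5, against 217, 200.3 and 203 in BMSCs-OE-NC. The groups stood nearly 1 log2 unit apart and it rose (log2 fold change 0.96 ± 0.034 SE, adjusted p = 5e-10). Vars, the valyl enzyme, had 333, 346 and 329 scaled CPM in BMSCs-OE-FNDC5, against 209, 205 and 215 in BMSCs-OE-NC. Vars rose (log2 fold change 0.68 ± 0.031 SE, adjusted p = 4.5e-09) with no overlap.

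Farsa and Farsb encode the subunits of the cytosolic phenylalanyl enzyme, which works as a tetramer with a pair of each. Farsa had 151, 143 and 144 scaled CPM in BMSCs-OE-FNDC5, against 98.7, 99.6 and 98.8 in BMSCs-OE-NC. Higher in every BMSCs-OE-FNDC5 library, Farsa rose (log2 fold change 0.56 ± 0.034 SE, adjusted p = 4.8e-08). Farsb had 21.8, 23.4 and 22.8 scaled CPM in BMSCs-OE-FNDC5, against 34.9, 25.8 and 30.96 in BMSCs-OE-NC, and it fell (log2 fold change -0.43 ± 0.10 SE, adjusted p = 0.00267), so the 2 subunits went opposite ways. Their log2 count ratio was 2.79, 2.61 and 2.66 in BMSCs-OE-FNDC5, against 1.5, 1.95 and 1.67 in BMSCs-OE-NC.

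Yars, the tyrosyl enzyme, rose (log2 fold change 0.50 ± 0.029 SE, adjusted p = 4e-08) with 192 ± 2.25 scaled CPM in BMSCs-OE-FNDC5 and 136 ± 1.55 in BMSCs-OE-NC (SD). Cars, the cysteinyl enzyme, rose (log2 fold change 0.45 ± 0.037 SE, adjusted p = 7e-07) with 131 ± 3.73 scaled CPM in BMSCs-OE-FNDC5 and 95.5 ± 2.66 in BMSCs-OE-NC (SD). The Cars call was lost when scaled by library size only (log2 fold change 0.08, adjusted p = 0.0673). Gars, the glycyl enzyme that serves cytosol and mitochondria from a single gene, rose by a small amount (log2 fold change 0.19 ± 0.033 SE, adjusted p = 0.00035) with 148 ± 3.86 scaled CPM in BMSCs-OE-FNDC5 and 130.02 ± 2.15 in BMSCs-OE-NC (SD), and scaled by library size only it fell (log2 fold change -0.18, adjusted p = 0.00041). Nars, the asparaginyl enzyme, fell (log2 fold change -0.15 ± 0.036 SE, adjusted p = 0.00314) with 111 ± 3.01 scaled CPM in BMSCs-OE-FNDC5 and 124 ± 3.27 in BMSCs-OE-NC (SD). Tars, the threonyl enzyme, fell (log2 fold change -0.21 ± 0.040 SE, adjusted p = 0.00054) with 75.5 ± 2.17 scaled CPM in BMSCs-OE-FNDC5 and 87.6 ± 2.44 in BMSCs-OE-NC (SD). With the length trend removed Nars was at 0.07 (adjusted p = 0.0867) and Tars was called as higher at 0.14 (adjusted p = 0.0103).

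For 4 synthetases outside the complex the test was not passed. Aars, the alanyl enzyme, had 211, 214 and 213 scaled CPM in BMSCs-OE-FNDC5, against 213, 203 and 211 in BMSCs-OE-NC, and the groups overlapped (log2 fold change 0.03 ± 0.030 SE, adjusted p = 0.452). Library size only called it lower (log2 fold change -0.34) and removal of the length trend called it higher (0.46). Hars, the histidyl enzyme, had 89.4, 90.8 and 90.4 scaled CPM in BMSCs-OE-FNDC5, against 86.3, 86.1 and 84.1 in BMSCs-OE-NC. These groups did not overlap, yet the adjusted p was 0.0642 at a log2 fold change of 0.08. RLE scaling called Hars higher (0.11, adjusted p = 0.0169), as did both fits of FPKM, and library size only called it lower (-0.29, adjusted p = 1.4e-05).

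Wars, the tryptophanyl enzyme, had 52.98, 57.4 and 62.1 scaled CPM in BMSCs-OE-FNDC5, against 57.03, 52.1 and 51.6 in BMSCs-OE-NC. The groups overlapped (log2 fold change 0.10 ± 0.063 SE, adjusted p = 0.168). It was called as lower with library size only (-0.27, adjusted p = 0.00207), and as higher with the length trend removed (0.56, adjusted p = 1.1e-05) and without BMSCs-OE-FNDC5 replicate 1 (0.16, adjusted p = 0.0393). Tarsl2 had 1.98, 2.66 and 2.05 scaled CPM in BMSCs-OE-FNDC5, against 2.26, 1.94 and 2.48 in BMSCs-OE-NC, at 30 to 49 counts a library (log2 fold change 0.0032 ± 0.23 SE, adjusted p = 0.99), and both library size only (-0.37) and removal of the length trend (-0.02) turned its sign without a call. An unnamed transcript listed as Tarsl2-like, just downstream of it on chromosome 1, had only 4 to 17 counts a library and did not pass (log2 fold change -0.33 ± 0.56 SE, adjusted p = 0.607).

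The 2 cytosolic members with a related domain are not synthetases. Aarsd1, which carries a domain like the editing part of the alanyl enzyme and removes serine wrongly joined to alanine tRNA, had 89.5, 79.5 and 83.7 scaled CPM in BMSCs-OE-FNDC5, against 32.6, 30.3 and 33.03 in BMSCs-OE-NC. It had the highest log2 fold change of all 43 members (log2 fold change 1.40 ± 0.056 SE, adjusted p = 1.5e-09) and was called as higher under library size only (1.03) and with the length trend removed (1.79). Prorsd1, which resembles a bacterial editing domain for prolyl-tRNA, had 3.70, 3.82 and 5.17 scaled CPM in BMSCs-OE-FNDC5, against 4.08, 2.89 and 2.27 in BMSCs-OE-NC, and the groups overlapped (log2 fold change 0.46 ± 0.24 SE, adjusted p = 0.106). Without BMSCs-OE-NC replicate 1 it was called as higher (0.70, adjusted p = 0.0264).

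LOC103690033, a copy similar to Iars on chromosome 17, had 1, 35 and 9 counts in BMSCs-OE-FNDC5, against 10, 69 and 117 in BMSCs-OE-NC. The counts within a group differ so widely that its log2 fold change of -1.69 ± 0.86 (SE) did not pass (adjusted p = 0.0948), and reads may be shared between it and Iars. It was called as lower without BMSCs-OE-FNDC5 replicate 2 (-3.28, adjusted p = 0.0158), without BMSCs-OE-NC replicate 1 (-2.21, adjusted p = 0.0174) and with library size only (-2.06, adjusted p = 0.0461). LOC100911132, similar to Qars, had 2 counts in BMSCs-OE-FNDC5 replicate 3 and none elsewhere. Neither LOC100911132, nor Mars2 with 1 to 8 counts a library, nor LOC100911305, a Mars2-like copy at 0 in every library, was tested.

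**Figure D2:**
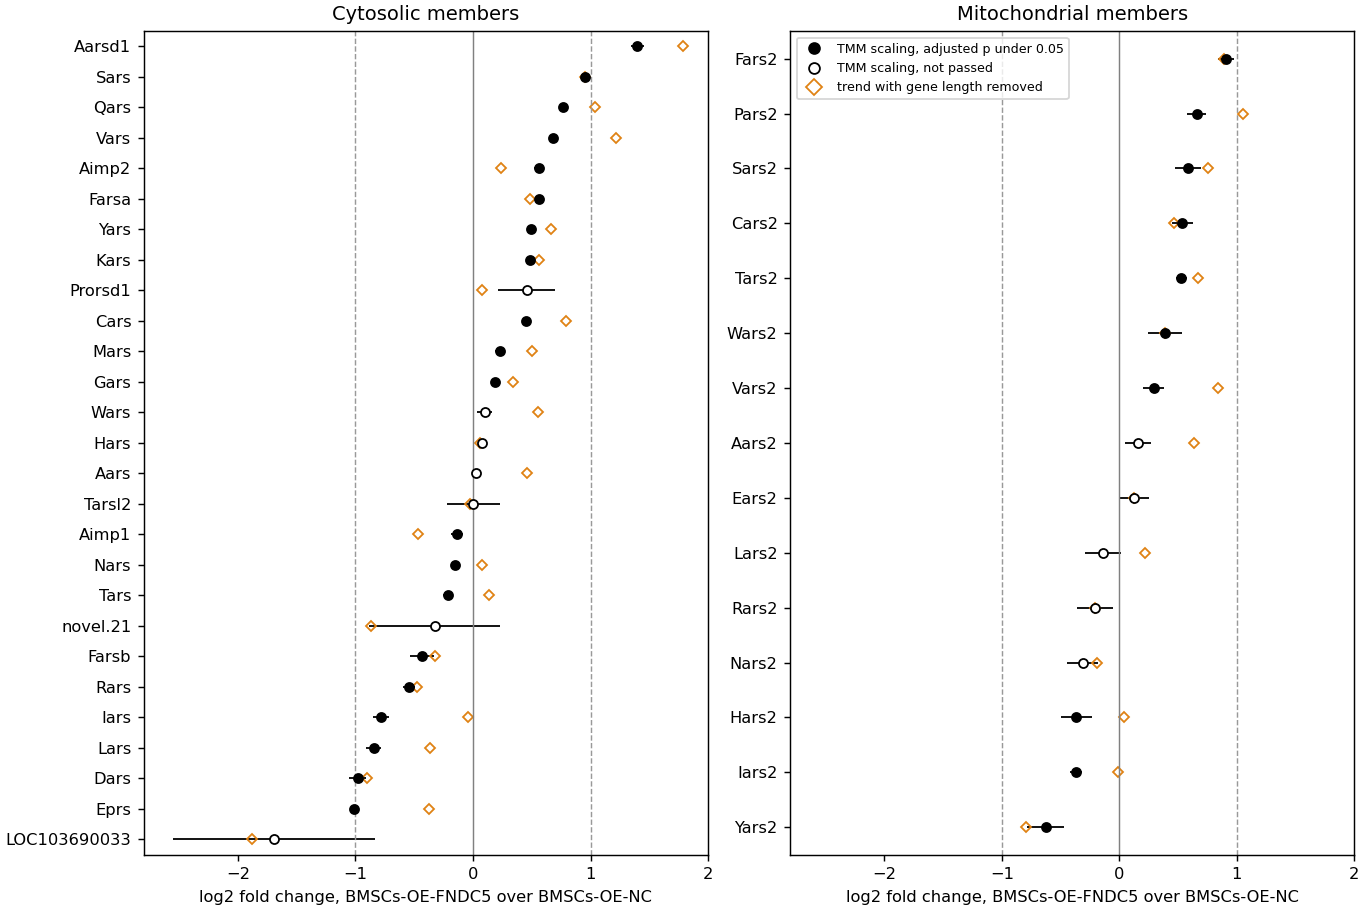
Log2 fold change (BMSCs-OE-FNDC5 relative to BMSCs-OE-NC) of tested members, with bars of 1 SE; filled circles passed at an adjusted p under 0.05 and open circles did not. Orange diamonds give the same value with the trend of counts with gene length removed, which moves long genes upwards, so that Eprs and Iars lie nearer to 0 and Vars farther from it, and leaves Dars near its place.

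Log2 fold changes went with gene length in these libraries, and the part of length in the calls of single members was not tested beyond the values given here. Over all 12104 tested genes log2 fold change and gene length had a Spearman correlation of -0.44, and over the 43 members of -0.07. These are descriptions across genes that share their libraries. The cytosolic complex members Eprs, Lars and Iars are 4855, 3857 and 5751 bases long in the deposited table, whereas Dars and Rars, which also fell, are 2159 and 2129 bases long. With the trend removed Eprs was at -0.37, Lars at -0.36, Rars at -0.47 and Dars at -0.90, all still called. Vars, at 4210 bases, was at 1.22.

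In mitochondria, the largest rises were of the phenylalanyl, prolyl, seryl, cysteinyl and threonyl enzymes. Fars2, a single-chain enzyme unlike its cytosolic partner, had 37.1, 41.7 and 37.4 scaled CPM in BMSCs-OE-FNDC5, against 21.2, 20.4 and 20.5 in BMSCs-OE-NC. Fars2 rose (log2 fold change 0.91 ± 0.069 SE, adjusted p = 3.3e-07). Pars2, the prolyl enzyme, had 24.3, 23.6 and 22.9 scaled CPM in BMSCs-OE-FNDC5, against 14.5, 14.95 and 15.3 in BMSCs-OE-NC. It rose (log2 fold change 0.66 ± 0.081 SE, adjusted p = 1.9e-05), and in both genes the groups stood apart.

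Sars2 had 19.7, 20.6 and 16.96 scaled CPM in BMSCs-OE-FNDC5, against 12.2, 11.96 and 14.04 in BMSCs-OE-NC. Sars2 rose (log2 fold change 0.58 ± 0.11 SE, adjusted p = 0.00056). Cars2, the cysteinyl enzyme also known to make cysteine persulfides, had 24.7, 24.96 and 21.9 scaled CPM in BMSCs-OE-FNDC5, against 16.9, 16.7 and 15.7 in BMSCs-OE-NC. It rose too (log2 fold change 0.54 ± 0.087 SE, adjusted p = 0.00018), but neither was called when scaled by library size only (adjusted p = 0.102 for Sars2 and 0.106 for Cars2). Tars2 had 55.7, 59.6 and 58.7 scaled CPM in BMSCs-OE-FNDC5, against 39.8, 39.3 and 41.7 in BMSCs-OE-NC. It rose (log2 fold change 0.53 ± 0.048 SE, adjusted p = 1.7e-06) and kept that call with library size only (log2 fold change 0.16).

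Wars2 and Vars2 were called as higher on smaller margins. Wars2 (log2 fold change 0.39 ± 0.15 SE, adjusted p = 0.0322) had 7.29 ± 0.590 scaled CPM in BMSCs-OE-FNDC5 and 5.57 ± 0.597 in BMSCs-OE-NC (SD), and Vars2 (log2 fold change 0.29 ± 0.091 SE, adjusted p = 0.0128) had 24.9 ± 2.35 scaled CPM in BMSCs-OE-FNDC5 and 20.3 ± 1.19 in BMSCs-OE-NC (SD). The Wars2 call was lost without BMSCs-OE-FNDC5 replicate 1 or 2 or BMSCs-OE-NC replicate 2 or 3, at log2 fold changes of 0.30 to 0.39, and the Vars2 call without BMSCs-OE-NC replicate 3 (0.24, adjusted p = 0.0592). Library size only put Vars2 at -0.08 and Wars2 at 0.02 (adjusted p = 0.462 and 0.924). Upper-quartile scaling called neither Vars2 (0.19, adjusted p = 0.0831) nor Wars2 (0.28, adjusted p = 0.101).

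The mitochondrial enzymes that fell were those for tyrosine, isoleucine and histidine. Yars2 had 5.36, 5.73 and 6.96 scaled CPM in BMSCs-OE-FNDC5, against 10.7, 8.17 and 8.99 in BMSCs-OE-NC. It fell (log2 fold change -0.63 ± 0.16 SE, adjusted p = 0.00348), with no overlap. Iars2 had 37.04, 35.8 and 33.8 scaled CPM in BMSCs-OE-FNDC5, against 45.5, 46.6 and 45.9 in BMSCs-OE-NC. It fell (log2 fold change -0.37 ± 0.052 SE, adjusted p = 5.3e-05), though at -0.01 with the length trend removed (adjusted p = 0.858). Hars2 had 9.72, 8.46 and 10.53 scaled CPM in BMSCs-OE-FNDC5, against 11.7, 14.004 and 11.3 in BMSCs-OE-NC. Its fall (log2 fold change -0.37 ± 0.13 SE, adjusted p = 0.0266) was lost without BMSCs-OE-FNDC5 replicate 1 or 2 or BMSCs-OE-NC replicate 2 (-0.37, -0.28 and -0.27), and its sign turned with the length trend removed (0.04). Hars and Hars2 lie head to head on chromosome 18, 97 bases apart.

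Other mitochondrial enzymes did not pass. Aars2 had 18.5, 23.7 and 24.8 scaled CPM in BMSCs-OE-FNDC5, against 19.3, 19.9 and 20.8 in BMSCs-OE-NC. In BMSCs-OE-FNDC5, replicate 1 was below the BMSCs-OE-NC libraries and the other two above them (log2 fold change 0.16 ± 0.11 SE, adjusted p = 0.209), and without that library Aars2 was called as higher (0.28, adjusted p = 0.0106). It was also called as higher with the length trend removed (0.64), and was at -0.21 with library size only (adjusted p = 0.101). Ears2, the glutamyl enzyme, had 7.34, 6.96 and 6.96 scaled CPM in BMSCs-OE-FNDC5, against 6.24, 6.58 and 6.67 in BMSCs-OE-NC. The groups did not overlap, with an adjusted p of 0.388, and library size only turned the sign (-0.24, adjusted p = 0.102).

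Lars2, the leucyl enzyme, had 8.53, 9.68 and 8.35 scaled CPM in BMSCs-OE-FNDC5, against 11.6, 9.77 and 7.93 in BMSCs-OE-NC. The BMSCs-OE-FNDC5 libraries lay within the range of BMSCs-OE-NC (log2 fold change -0.14 ± 0.15 SE, adjusted p = 0.416). Library size only called it lower (-0.51, adjusted p = 0.01) and removal of the length trend turned its sign (0.22, adjusted p = 0.229). Rars2, the arginyl enzyme, had 4.70, 5.80 and 4.57 scaled CPM in BMSCs-OE-FNDC5, against 5.70, 5.78 and 5.91 in BMSCs-OE-NC. Those groups overlapped as well (log2 fold change -0.21 ± 0.15 SE, adjusted p = 0.238), library size only called it lower (-0.58), and 7544 bases of its locus are shared with Slc35a1 on the opposite strand. Nars2 had 6.35, 6.62 and 6.03 scaled CPM in BMSCs-OE-FNDC5, against 7.37, 8.62 and 7.58 in BMSCs-OE-NC. Its groups did not overlap and it was close to the threshold (log2 fold change -0.31 ± 0.13 SE, adjusted p = 0.0517). It was called as lower with upper-quartile scaling (-0.42), library size only (-0.68), at least 10 counts in every library (-0.34) and log2(FPKM + 1) (-0.21).

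For 15 amino acid pairs, the cytosolic gene could be set against its mitochondrial partner inside each library, which removes the scaling between libraries. Eprs was paired with both Ears2 and Pars2. The log2 count ratio of cytosolic to mitochondrial gene did not overlap between groups in 11 pairs, lower in BMSCs-OE-FNDC5 in 7 and higher in 4. Among all single tested genes, 78.3% did not overlap in scaled CPM, and no share was taken for ratios of other genes. Each of the 11 pairs had an exact permutation p of 0.1 (two-sided). This is the smallest that 3 against 3 libraries allow, so none could pass 0.05. The differences ran between -1.67 and 1.12 with a median of -0.29.

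The pairs of Eprs moved the most in the downward direction. Against Pars2 the log2 ratio was 1.79, 1.72 and 1.86 in BMSCs-OE-FNDC5, against 3.44, 3.46 and 3.47 in BMSCs-OE-NC. Eprs counts were thus 3.45 times those of Pars2 in BMSCs-OE-FNDC5 and 11 times in BMSCs-OE-NC. Against Ears2 the mean log2 ratio was 3.52 ± 0.05 in BMSCs-OE-FNDC5 and 4.65 ± 0.01 in BMSCs-OE-NC (SD, n = 3 each). The ratios of Tars to Tars2 and Lars to Lars2 were lower by 0.74 and 0.72 log2 units.

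Tyrosine was the pair with the strongest shift towards the cytosolic gene. The log2 ratio of Yars to Yars2 was 5.14, 5.07 and 4.78 in BMSCs-OE-FNDC5, against 3.64, 4.06 and 3.93 in BMSCs-OE-NC. Histidine, valine and serine followed with differences of 0.44, 0.39 and 0.37. The ratios for alanine, asparagine, cysteine and tryptophan overlapped between groups. Iars to Iars2 was the only tested pair whose mitochondrial gene had more counts than the cytosolic gene, with mean log2 ratios of -0.71 in BMSCs-OE-FNDC5 and -0.30 in BMSCs-OE-NC. A ratio of genes of unequal length carries the length trend, and with it removed the isoleucine and histidine differences were -0.03 and 0.02, while Eprs to Pars2 was -1.42 and Yars to Yars2 1.46. Its removal turned the sign of 2 of the 15 differences, which both overlapped between groups, with Cars to Cars2 at 0.33 in place of -0.08 and Wars to Wars2 at 0.17 in place of -0.29.

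**Figure D3:**
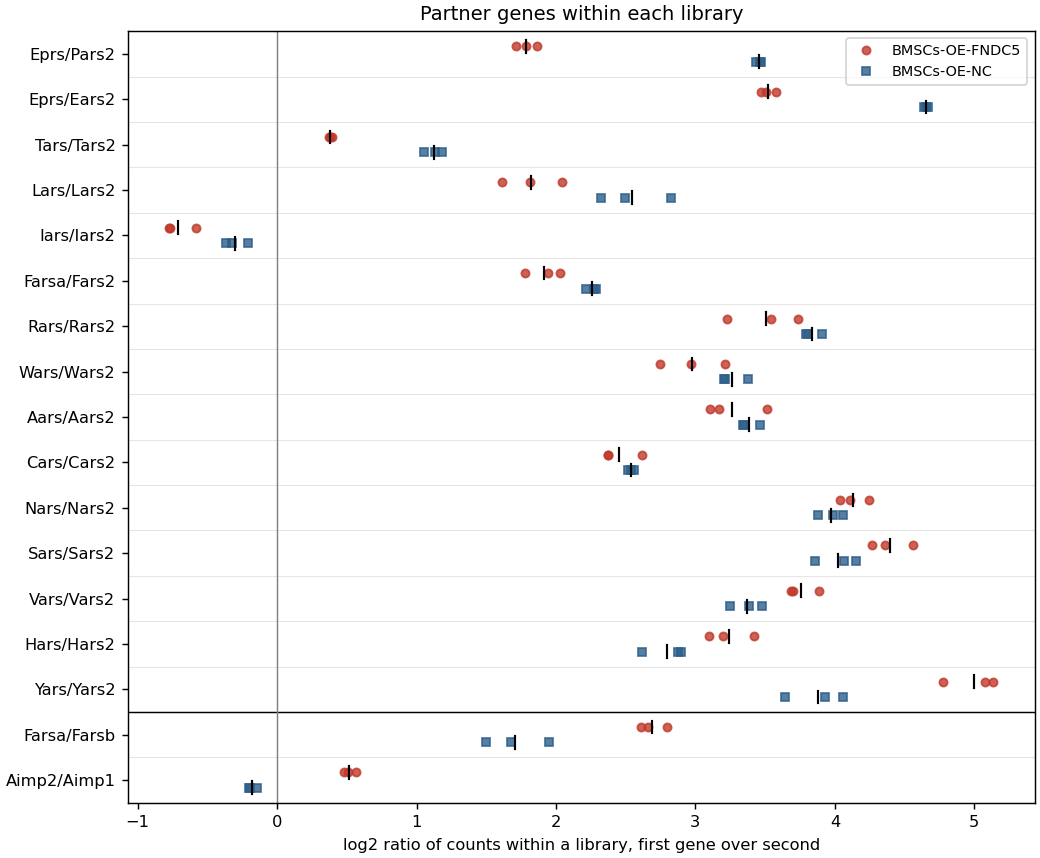
Log2 ratio of counts within each library for 15 cytosolic and mitochondrial partners, sorted by the difference between groups, and below the line for the subunits Farsa and Farsb and the scaffolds Aimp2 and Aimp1. Circles are BMSCs-OE-FNDC5 libraries, squares BMSCs-OE-NC libraries and ticks group means; Eprs to Pars2 differs by -1.67 and Yars to Yars2 by 1.12.

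By enzyme class, which describes the fold of the catalytic domain, rises and falls were mixed in both. Of the 10 class I genes, 5 rose and 4 fell (median log2 fold change 0.16), and of the 11 class II genes, 4 rose and 4 fell (0.03). Over all tested genes 36.9% rose and 38.8% fell. The 12 synthetases known as targets linked to Atf4 in mammals had 5 rises and 5 falls (median 0.06), and the 8 other listed cytosolic synthetases had 4 and 3 (median 0.28). With the length trend removed the Atf4-linked genes had 8 rises and 2 falls, where 40.6% of all tested genes rose and 30.9% fell. With library size only they had 2 and 9, where 22.0% of all rose and 55.4% fell.

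The promoters of members were searched for a sequence linked to Atf4. The letters TGATGNAA, the core of the element bound by C/EBP and ATF factors, were searched on both strands over 300 bases, 250 before and 50 after the first start listed for each gene by RefSeq (GRCr8). They were present in 7 of the 22 cytosolic member promoters found there (31.8%), in none of 16 mitochondrial ones, and in 3.82% of 27457 promoters overall. All 7 were on the Atf4-linked list, which had 11 promoters and was partly drawn from genes with such elements. The windows below are shown because the matched letters recur close to the start while the genes moved differently, and capitals mark the match as read along the gene.
Mars, chr7:65023754-65023811, minus strand: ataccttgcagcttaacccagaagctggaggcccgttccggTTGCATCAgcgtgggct
Aars, chr19:55908329-55908420, plus strand: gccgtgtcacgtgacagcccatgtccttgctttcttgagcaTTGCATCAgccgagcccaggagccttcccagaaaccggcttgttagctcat
Nars, chr18:60275783-60275837, minus strand: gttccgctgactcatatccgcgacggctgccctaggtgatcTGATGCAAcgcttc
Tars, chr2:62114803-62114870, minus strand: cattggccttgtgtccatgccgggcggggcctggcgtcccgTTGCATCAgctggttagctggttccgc
Iars, chr17:15193653-15193717, minus strand: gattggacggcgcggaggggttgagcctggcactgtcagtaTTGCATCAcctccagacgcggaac
Trib3, chr3:161275534-161275595, minus strand: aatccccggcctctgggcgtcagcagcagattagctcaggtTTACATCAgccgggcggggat

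Counted along the gene from its start, the match began at -17 in Mars, -112 in Aars, -14 in Nars, -27 in Tars and -24 in Iars. Aars had another match at 9, and the matches of Yars and Cars began after the start, at 38 and 17. The log2 fold changes of the 7 genes were 0.50 for Yars, 0.45 for Cars, 0.23 for Mars, 0.03 for Aars, -0.15 for Nars, -0.21 for Tars and -0.78 for Iars, so the shared letters went with both directions. Trib3, a pseudokinase induced by Atf4 and no synthetase, had a match at -21 and a log2 fold change of 1.85. Matches stood in 5 of the 20 promoters found for listed targets of the amino acid response (25.0%). Of the other matched targets, Chac1 and Pycr1 rose (0.99 and 0.88) and Slc7a1 fell (-0.65). Slc7a1 was at 0.18 with the length trend removed, and Nupr1 was not found in the count table. A match is a description of these letters and not a bound site.

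The sensing arm, listed together with Atf4 itself, was also mixed. Of 12 genes, 8 rose and 4 fell, with a median log2 fold change of 0.22, where 36.9% of all tested genes rose and 38.8% fell. With library size only 3 rose and 7 fell, where 22.0% of all rose and 55.4% fell. Eif2ak4, the kinase GCN2 that binds uncharged tRNA, had 14.3, 15.1 and 15.7 scaled CPM in BMSCs-OE-FNDC5, against 29.5, 30.8 and 37.1 in BMSCs-OE-NC, and it fell (log2 fold change -1.11 ± 0.099 SE, adjusted p = 1.3e-06), though it was at -0.10 with the length trend removed (adjusted p = 0.343). Impact, an inhibitor of GCN2 activation, had 11.04, 10.7 and 10.9 scaled CPM in BMSCs-OE-FNDC5, against 32.96, 29.3 and 31.1 in BMSCs-OE-NC, and fell (log2 fold change -1.52 ± 0.084 SE, adjusted p = 2.2e-08), also with the length trend removed (-1.11). Ppp1r15b, a partner of the phosphatase that acts on eIF2, fell as well (log2 fold change -0.93 ± 0.066 SE, adjusted p = 1.8e-07), and was at -0.23 with the length trend removed (adjusted p = 0.0104). Eif2b2, a subunit of the exchange factor that eIF2 phosphorylation blocks, rose (log2 fold change 1.23 ± 0.046 SE, adjusted p = 7.6e-10), and so did Ppp1r15a, which directs removal of that phosphate (log2 fold change 0.55 ± 0.033 SE, adjusted p = 4.1e-08). Atf4, singled out after its values were seen, had 690.4, 665 and 701 scaled CPM in BMSCs-OE-FNDC5, against 608, 589.96 and 607 in BMSCs-OE-NC. It rose by a small amount (log2 fold change 0.19 ± 0.027 SE, adjusted p = 6.9e-05), and scaled by library size only it fell (log2 fold change -0.18, adjusted p = 6.1e-05).

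Of 22 tested targets of the amino acid response, 15 rose and 4 fell, with a median log2 fold change of 0.49, where 36.9% of all tested genes rose and 38.8% fell. With library size only 11 rose and 7 fell, where 22.0% of all rose and 55.4% fell. Trib3 had 107, 109 and 111 scaled CPM in BMSCs-OE-FNDC5, against 29.6, 29.2 and 31.7 in BMSCs-OE-NC, the smallest adjusted p of the list (log2 fold change 1.85 ± 0.045 SE, adjusted p = 3.2e-11). Phgdh, the first enzyme of serine synthesis, had 147 ± 3.71 scaled CPM in BMSCs-OE-FNDC5 and 56.8 ± 5.32 in BMSCs-OE-NC (SD), and Shmt2, which turns serine into glycine in mitochondria, had 353 ± 14.1 scaled CPM in BMSCs-OE-FNDC5 and 203 ± 4.71 in BMSCs-OE-NC (SD). Both rose (log2 fold change 1.37 ± 0.059 SE, adjusted p = 2.6e-09 for Phgdh and log2 fold change 0.80 ± 0.035 SE, adjusted p = 2.9e-09 for Shmt2). Chac1, a glutathione-degrading enzyme, rose as well (log2 fold change 0.99 ± 0.045 SE, adjusted p = 4.4e-09). The genes that fell included Vldlr, a lipoprotein receptor (log2 fold change -1.08 ± 0.060 SE, adjusted p = 2.3e-08), and Xpot, the exporter of tRNA from the nucleus (log2 fold change -1.06 ± 0.062 SE, adjusted p = 3.7e-08).

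Of 7 enzymes that correct or release tRNA, which include the members Aarsd1 and Prorsd1, 5 rose, none fell and 2 did not pass. Their median log2 fold change was 0.75. Over all tested genes 36.9% rose and 38.8% fell. Prorsd1 and Dtd1, a D-aminoacyl-tRNA deacylase (adjusted p = 0.109), were those that did not pass. Ptrhd1 (log2 fold change 1.22 ± 0.12 SE, adjusted p = 2.8e-06) and Ptrh2 (log2 fold change 0.75 ± 0.11 SE, adjusted p = 0.00012), both named for peptidyl-tRNA hydrolase activity, rose. Ptrhd1 had 18.98, 15.5 and 18.9 scaled CPM in BMSCs-OE-FNDC5, against 7.86, 7.87 and 7.17 in BMSCs-OE-NC, and Ptrh2 had 32.01, 27.01 and 22.9 scaled CPM in BMSCs-OE-FNDC5, against 15.8, 16.9 and 16.1 in BMSCs-OE-NC. In both genes the groups did not overlap. With library size only 4 of the 7 rose and 1 fell, where 22.0% of all tested genes rose and 55.4% fell. Of genes that act on mitochondrial tRNA after charging, Mtfmt, which formylates methionyl-tRNA, rose (log2 fold change 0.41 ± 0.11 SE, adjusted p = 0.00504) but was not called with the length trend removed (adjusted p = 0.125) or with library size only (adjusted p = 0.769), and Gatb and Qrsl1, subunits of the amidotransferase that makes glutaminyl-tRNA, did not pass.

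**Figure D4:**
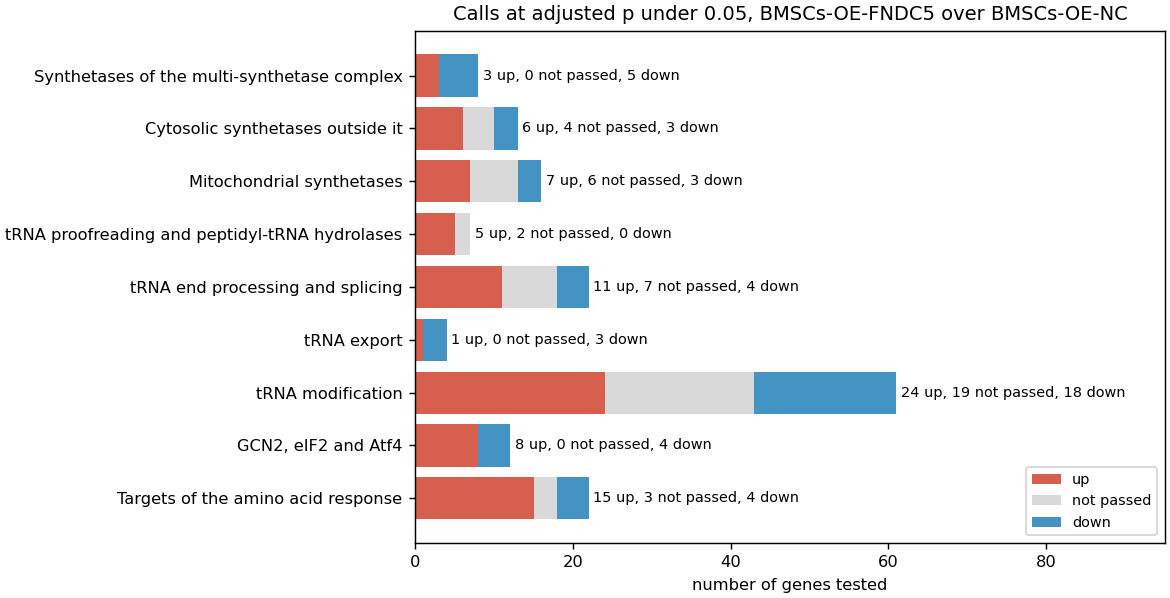
Number of tested genes in each list that were up, did not pass or were down at an adjusted p under 0.05 in BMSCs-OE-FNDC5 relative to BMSCs-OE-NC. The complex has 3 up and 5 down, and the targets of the amino acid response 15 up and 4 down. Over all tested genes 36.9% were up and 38.8% down. Xpot stands both in the export list and among the targets.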

How the data were processed

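RNA of BMSCs-OE-FNDC5 and BMSCs-OE-NC, taken at 24 h of H/SD, was sequenced in 3 libraries a group. The authors deposited whole-number gene counts, not normalized, and FPKM values. These FPKM are counts divided by gene length and by a depth that differs from the total count of the library. Fits of FPKM are therefore not fits scaled by library size only. The submitters' processing notes name HTSeq 0.6.0, HISAT2 2.1.0, Bowtie2 2.2.3, TopHat2, CASAVA, DESeq2 and the build mm10, while the gene identifiers are of rat, so coordinates of the count table carry no stated build. Strand use is not given in the sources used here.

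Counts were fitted with edgeR 4.0.16 in R 4.3.3 (filterByExpr with a minimum count of 10, TMM, glmQLFit and glmQLFTest, group as the only term), with Benjamini-Hochberg adjustment of p over the 12104 tested genes. A member was called at an adjusted p under 0.05. Partner ratios were log2 of counts with 0.5 added, compared by an exact permutation test. The fit was tested on simulated counts in which only a small set of genes changed, so that test could not decide which scaling suits these libraries.

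Alternatives were RLE, upper-quartile and library-size scaling, DESeq2 1.42.0, limma 3.58.1 (voom, and trend on log2(FPKM + 1) and log2(FPKM + 0.1)), no filter, 10 counts in every library, the replicate number as a block, an offset for the trend of counts with gene length (lowess, span 0.3), and each library left out. The members and lists were chosen with earlier results of these data known. Values in every library were given for the 5 highest and 5 lowest called members of each class, the scaffolds and members that did not pass. In the other lists, naming stopped at 4 genes a direction, taken by smallest p, apart from targets named for a promoter match. Promoters came from RefSeq (GRCr8) and were found for 38 of the 46 members by identifier or symbol. A planned search of member protein sequences was not made here. Some genes, a member among them, count in the totals and are not reported here by name. Groups of 3 libraries were not screened for outliers.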

Additional observations from a re-analysis of the deposited data

How the results depend on the processing

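Most results kept their direction and side of the threshold. Over 11 alternatives, 408 of the single member values were the same, 17 lost the call, 14 gained one and 21 changed sign. limma-voom changed no member. The count of cytosolic members that fell was 15 of 27 with library size only, where 55.4% of all tested genes fell. The count of cytosolic members that rose beyond the fold threshold was 3 with the length trend removed. In the main fit the count that fell beyond it rests on Eprs at the threshold. It was 0 with RLE scaling, DESeq2, both FPKM fits and the length trend removed, 2 with upper-quartile scaling, with at least 10 counts in every library and with the replicate block, and 5 with library size only. Left-out libraries gave 1 to 3, with 2 without BMSCs-OE-FNDC5 replicate 3 and 3 without BMSCs-OE-NC replicate 1. The low-count copy LOC103690033 is in that count with the replicate block (-1.795) and library size only (-2.06). It is also in it without BMSCs-OE-NC replicate 1 (-2.21) and without BMSCs-OE-FNDC5 replicate 2 (-3.28). The cytosolic median was -0.027 with upper-quartile scaling, -0.29 with library size only, 0.11 with DESeq2 and 0.14 with the length trend removed. Mitochondrial members numbered 3 that rose and 7 that fell of 16 with library size only, where 22.0% of all rose and 55.4% fell. With the length trend removed 1 fell, where 30.9% of all fell, and 1 rose beyond the fold threshold. The mitochondrial median was 0.037 with upper-quartile scaling, -0.23 with library size only and 0.30 with the length trend removed. The cause of these shifts was not tested beyond the change of scaling itself.

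With library size only, signs turned for Aars (-0.34), Mars (-0.14), Gars (-0.18), Hars (-0.29), Wars (-0.27), Vars2 (-0.077), Aars2 (-0.21), Ears2 (-0.24) and Tarsl2 (-0.37). With upper-quartile scaling they turned for Aars (-0.079), Hars (-0.027), Wars (-0.0039) and Tarsl2 (-0.10). With the length trend removed they turned for Nars (0.074), Tars (0.14), Hars2 (0.041), Lars2 (0.22) and Tarsl2 (-0.023). Aars and Tarsl2 also turned with at least 10 counts in every library (-0.0055 and -0.028) and without BMSCs-OE-NC replicate 2, and Tarsl2 without a filter (-0.0047) and without BMSCs-OE-FNDC5 replicate 2. Over the left-out libraries Aars ran between -0.0023 and 0.033 and Tarsl2 between -0.14 and 0.084. DESeq2 lost the calls of Aimp1 (adjusted p = 0.191), Hars2 (0.0636) and Wars2 (0.0704).

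Replicate numbers were not shown to pair libraries, since deviations of same-numbered libraries correlated at 0.02, -0.01 and -0.01. The replicate block left the members called as higher at 18 and called 13 as lower in place of 12, the added one being LOC103690033 (log2 fold change -1.795, adjusted p = 0.00966). All 120 values of the partner ratios kept their direction, 90 with a library left out and 30 with 1 added to each count or with FPKM. In the 11 pairs without overlap, leaving out a library could not turn the direction. FPKM could not turn it in any pair, since gene length cancels between groups, and 1 added to such counts moves a ratio little. Removal of the length trend, not among these, turned 2 of 15. Low counts limit Mars2, Tarsl2, the unnamed transcript and the copies, and a ratio or call there has wide error.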

Other observations

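Other steps of tRNA handling held rises and falls too. Of 22 tested genes for tRNA ends and splicing, 11 rose and 4 fell, with a median log2 fold change of 0.29. Over all tested genes 36.9% rose and 38.8% fell. Scaled by library size only 7 of the 22 rose and 10 fell, where 22.0% of all rose and 55.4% fell. Pop5, a protein of RNase P, which cuts the 5' end, had 86.6 ± 4.82 scaled CPM in BMSCs-OE-FNDC5 and 41.7 ± 2.83 in BMSCs-OE-NC (SD, n = 3 each, log2 fold change 1.05, adjusted p = 2.4e-08). Rtcb, the ligase that joins the cut tRNA pieces, had 199.6 ± 4.70 in BMSCs-OE-FNDC5 and 135 ± 5.07 in BMSCs-OE-NC (0.56, adjusted p = 7.7e-08). Ddx1, a helicase that works with Rtcb, fell instead, with 29.4 ± 1.46 in BMSCs-OE-FNDC5 and 52.1 ± 0.50 in BMSCs-OE-NC (-0.82, adjusted p = 7.4e-08). Trnt1, which adds the CCA end that synthetases charge, had 2.11 ± 0.52 in BMSCs-OE-FNDC5 and 7.13 ± 0.30 in BMSCs-OE-NC (-1.75, adjusted p = 7.1e-06).

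Of 61 tested genes for tRNA modification, 24 rose and 18 fell, with a median of 0.01, where 36.9% of all rose and 38.8% fell. With library size only 13 rose and 33 fell, where 22.0% of all rose and 55.4% fell. Lage3 (1.04, adjusted p = 1e-09), a subunit of the KEOPS complex, and Trmt1 (1.02, adjusted p = 1.1e-09), a guanosine methyltransferase, were the rises with the smallest p. Of 4 export genes, Ran rose (0.37, adjusted p = 6.2e-07) and Xpot, Xpo5 and Nup155 fell, and of 4 selenocysteine genes, Eefsec rose (0.54, adjusted p = 2.5e-05) and Pstk, Sepsecs and Secisbp2 fell. With the length trend removed Ran was at 0.03 (adjusted p = 0.455) and Xpo5 was called as higher at 0.19 (adjusted p = 0.0266), while with library size only Ran was at 0.0030 (adjusted p = 0.935). With the length trend removed 2 of the selenocysteine genes rose, Eefsec and Pstk (0.30, adjusted p = 0.0458), and none fell in edgeR (Sepsecs was at -0.28 with an adjusted p of 0.159). These are values of the same edgeR fit, with no explanation tested.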
